A study of Coelastrella tenuitheca with 9 samples.

Results

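The genes of glycolysis, pyruvate entry, the citrate cycle and the respiratory chain were followed in the green microalga Coelastrella tenuitheca strain S93-3 exposed to cadmium. They were chosen by words in their product names (aldolase, glyceraldehyde, phosphoglycerate, enolase, pyruvate, citrate, isocitrate, succin, fumarate, malate, NADH dehydrogenase, cytochrome c, ATP synthase and the like), and the word rule uses no measured value, although this set of words was drawn up with earlier results of the same data known. The rule took 52 of the 12605 genes in the table, and all 52 had enough reads to be tested. From their names, 46 of the 52 were placed in 8 roles of the pathway, and 6 caught by a word were assigned to other pathways. Whole wild-type cells of this 1 strain were sampled in 3 groups of 3 libraries, all labelled as batch 1. All cultures were first grown with glucose in modified BG-11 medium under continuous light and shaking, and were then moved to fresh medium. The control group (Control) received 0 mg/L cadmium chloride, and the others received 20 mg/L (Cd20) or 50 mg/L (Cd50) for 7 days. Nothing in the labels tells whether replicate libraries stand for separate cultures, so p-values measure the spread between these libraries, which may be technical.

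In glycolysis a hexose is split by aldolase, oxidised by glyceraldehyde-3-phosphate dehydrogenase (GAPDH) and converted through phosphoglycerate and enolase to phosphoenolpyruvate and pyruvate. Pyruvate enters the citrate cycle as acetyl-CoA through pyruvate dehydrogenase, and the cycle yields reduced carriers that the mitochondrial complexes I to IV oxidise, with ATP synthase using the proton gradient they build. In green algae part of glycolysis also runs in the chloroplast, where aldolase and GAPDH serve the Calvin cycle too. Green algae such as Chlamydomonas reinhardtii also split pyruvate to acetyl-CoA and formate with pyruvate formate lyase, an enzyme of fermentation.

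Library totals ranged from 10457007 to 15456743 counts, and the lowest count of any of the 52 genes in a library was 34, for A04784. Product names, mostly taken from matches to fungal proteins, were given for 19.49% of genes. The words hexokinase, phosphofructokinase, ubiquinol and NADH-ubiquinone matched 0 products, and the compartment of each enzyme is not known beyond its name. The cells carried transcripts of a photosynthetic alga: 13 of 15 chlorophyll a-b binding (antenna) genes, 1 chlorophyll synthase gene and the Rubisco small chain gene passed the count filter, while the word photosystem matched 0 products. The summed level of these 15 genes was 2975 to 3213 CPM (counts scaled to a common library total) in the control libraries, 1814 to 2028 at 20 mg/L and 2094 to 2388 at 50 mg/L. The difference from control lay in the Rubisco small chain (A03462), at 2135 to 2268, 1030 to 1131 and 1190 to 1445 CPM. Without it the sums were 839 to 945, 741 to 897 and 904 to 943 CPM. The control sums then overlapped those of each dose, while the sums at 20 and 50 mg/L did not overlap each other. Of the 13 antenna genes, 6 were lower and 4 higher at 20 mg/L, and 4 were lower and 4 higher at 50 mg/L. Whether these differences bear on the genes below was not tested. In bulk RNA, fewer cells of a type and less RNA per cell cannot be told apart. Control 1 and Cd50 1 stood apart from the other libraries of their groups. Of the control libraries, Control 1 was nearest to the 20 mg/L mean for 34 of the 52 genes, against 61.8% of all genes tested. Of the 50 mg/L libraries, Cd50 1 was nearest for 39, against 72.7%.

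At 20 mg/L most of these transcripts were lower than in the control. Of the 52, 32 were lower and 8 higher at an edgeR adjusted p under 0.05, whereas 27.2% of all 11140 genes tested were lower and 23.8% higher. The median log2 difference was -0.39 for the 52 and -0.03 for all genes. The changes were mostly moderate, and 6 of the 52 fell at least 2-fold against 10.6% of all genes, while 2 rose as much against 4.52%. Library values of the 2 groups did not overlap for 42 of the 52, against 61.6% of all genes. Of the calls, 25 of the 32 lower and 6 of the 8 higher held in every alternative tried.

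At 50 mg/L fewer of them differed from the control, with 18 lower and 3 higher against backgrounds of 21.8% and 17.8%, and 25 of the 52 without overlap against 46.9%. The medians were -0.09 for the 52 and 0.03 for all genes. Falls of at least 2-fold numbered 2 against 5.62% of all genes, and rises of that size 0 against 3.74%. This split depended on the scaling. With library size alone 12 were higher and 8 lower, where 3851 of all 11140 genes were higher and 1582 lower. The share of higher among the calls moved from 14.3% to 60.0% for the members and from 44.9% to 70.9% for all genes. The median of all genes moved from 0.03 to 0.26. The members' median lay below that of all genes by nearly the same amount in both, a difference of -0.114 with trimmed mean of M-values (TMM) scaling and -0.115 without. Only the lower calls of A00135, A03625, A03913, A04353, A05227, A05803, A07756 and A10995, and of the 3 higher ones that of A04092, held in every alternative. The number of lower calls was 11 without Control 3 or without Cd50 3, and 1 was higher without Cd50 2 or without Cd50 3. With the replicate number as a block in a fit of the 6 libraries compared, 6 were higher and 20 lower.

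Between the doses, 27 were higher at 50 than at 20 mg/L and 13 were lower, against backgrounds of 35.3% and 34.7%. Library values did not overlap for 44 of the 52, against 74.5% of all genes. At least 2-fold differences numbered 5 higher, against 16.7%, and 1 lower, against 9.32%. The median was 0.25 against 0.03 for all genes. With library size alone the counts were 36 higher and 9 lower, where 5440 of all 11140 genes were higher and 2262 lower. The median of all genes was then 0.39. The 3 comparisons share libraries, so they are not independent of each other. By group means, the lowest of the 3 levels was at 20 mg/L for 34 of the 52 genes (41.4% of all genes), at 50 mg/L for 13 (34.9%) and in the control for 5 (23.6%). The highest was in the control for 26 of them (23.7% of all genes), at 50 mg/L for 14 (37.9%) and at 20 mg/L for 12 (38.4%).

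**Figure D1:**
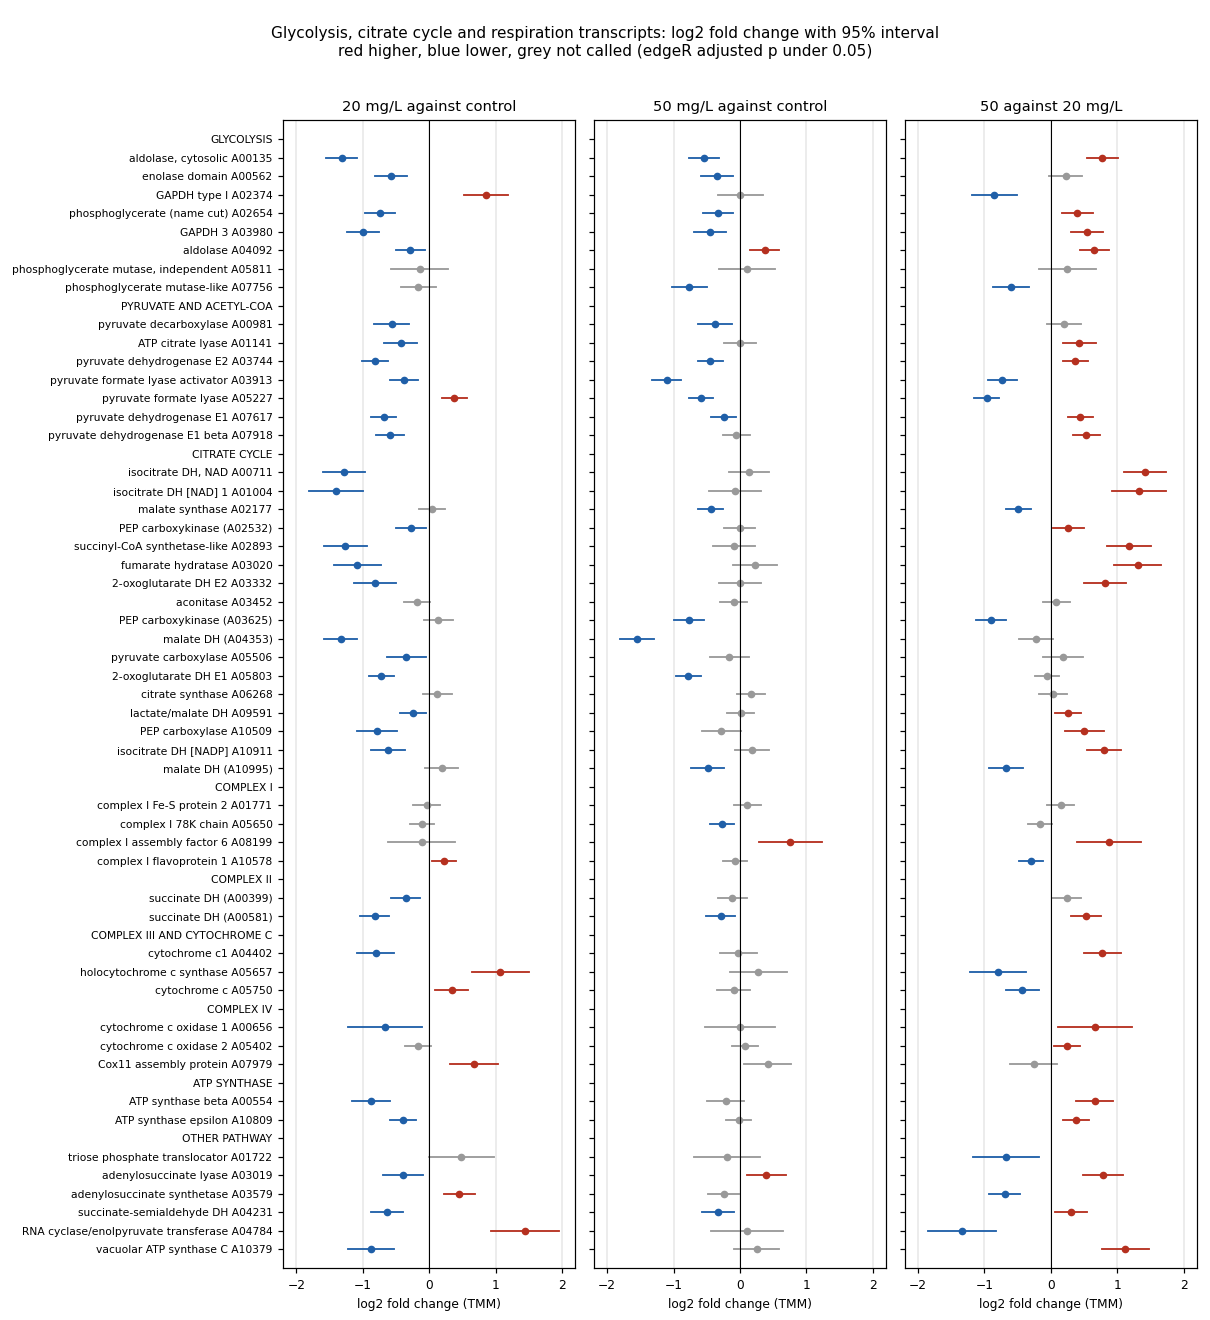
The log2 difference of each of the 52 genes is plotted for the 3 comparisons, with bars for its 95% interval. Blue points are lower, red points higher and grey points not called at an edgeR adjusted p under 0.05, with 32 blue and 8 red at 20 mg/L against control, 18 and 3 at 50 mg/L against control, and 13 and 27 at 50 against 20 mg/L.

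Among the 8 glycolysis genes, 5 fell and 1 rose at 20 mg/L, where 27.2% of all genes tested were lower and 23.8% higher. At 50 mg/L the counts against control were again 5 lower and 1 higher (all genes 21.8% lower and 17.8% higher). With library size alone they were 2 and 1, where 1582 of all 11140 genes were lower and 3851 higher. The summed level of the 8 was 1865 ± 129 CPM in the control, 1274 ± 95.6 at 20 mg/L and 1845 ± 55.2 at 50 mg/L (SD, n = 3). Sums of other roles took other courses. In the same order, the citrate cycle gave 2818 ± 197, 2273 ± 48.4 and 2346 ± 109 CPM. The pyruvate and acetyl-CoA genes gave 8557 ± 336, 8546 ± 59.9 and 6050 ± 246 CPM. All 46 genes in pathway roles gave 15299 ± 736, 13851 ± 243 and 12178 ± 154 CPM, lowest at 50 mg/L. Such sums were dominated by the most abundant genes. Aldolase, which splits fructose-1,6-bisphosphate into 2 triose phosphates, had 2 genes that behaved differently. The gene named as cytosolic, A00135 (chromosome 10, 149643 to 152268), was at 95.4, 99.6 and 99.7 CPM in the control libraries, at 44.7, 39.0 and 34.3 at 20 mg/L and at 69.6, 65.4 and 67.6 at 50 mg/L. The 3 groups did not overlap. It fell by 1.32 on the log2 scale at 20 mg/L (SE 0.11, edgeR adjusted p = 3.21e-06) and by 0.54 at 50 mg/L (SE 0.11, adjusted p = 0.00194). The other aldolase, A04092 (chromosome 1, 9603638 to 9606493), was at 790, 914 and 850 CPM in the control, 776, 668 and 655 at 20 mg/L and 1197, 1044 and 1066 at 50 mg/L. Every 50 mg/L library lay above every control library, and the rise was 0.37 on the log2 scale (SE 0.10, edgeR adjusted p = 0.012). Its difference of -0.28 at 20 mg/L passed the threshold (adjusted p = 0.0347), but did not without Control 2, Control 3, Cd20 2 or Cd20 3 (0.0931 to 0.145) or with DESeq2.

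The ratio of the 2 aldolase counts needs no scaling between libraries. A04092 had 8.27 to 9.18 times the counts of A00135 in the control libraries, 17.1 to 19.1 times at 20 mg/L and 15.8 to 17.2 times at 50 mg/L, so the balance of the 2 genes was displaced at both doses. The ratios of counts given here and below are descriptions chosen after the values were seen, and carry no test.

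GAPDH, which oxidises glyceraldehyde-3-phosphate, also had 2 genes that moved in opposite directions at 20 mg/L. The abundant one, A03980 (chromosome 1, 8870570 to 8875580), was at 600, 720 and 693 CPM in the control, at 365, 321 and 322 at 20 mg/L and at 429, 500 and 544 at 50 mg/L. All 20 mg/L values lay below all others, and the log2 difference from control was -0.997 (SE 0.11, edgeR adjusted p = 3.62e-05). At 50 mg/L it was -0.45 (SE 0.11, adjusted p = 0.0077), a call lost with library size alone and with limma on FPKM, which shares that scaling. The scarce GAPDH gene, A02374, rose 1.81-fold at 20 mg/L, from 19.7 ± 1.30 to 35.7 ± 2.97 CPM (SD, n = 3, edgeR adjusted p = 0.000883). Its level at 50 mg/L was 19.9 ± 4.44 CPM, a log2 difference from control of 0.01 (SE 0.16, adjusted p = 0.976). There were 0.0268 to 0.0352 counts of the scarce gene per count of the abundant one in the control, 0.0921 to 0.122 at 20 mg/L and 0.0313 to 0.0583 at 50 mg/L.

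In the lower part of the pathway, the gene whose product name ends after the word phosphoglycerate, A02654, was at 82.0, 85.3 and 80.2 CPM in the control, 55.6, 49.6 and 43.1 at 20 mg/L and 66.1, 65.4 and 64.6 at 50 mg/L. The groups did not overlap, and it fell by 0.74 at 20 mg/L (SE 0.11, edgeR adjusted p = 0.000192). Its lower call at 50 mg/L (-0.34, adjusted p = 0.0238) was lost without Control 1, Control 2, Control 3, Cd50 2 or Cd50 3, with p of 0.0521 to 0.0881, and with library size alone. The phosphoglycerate mutase-like gene A07756 differed in pattern, with 74.8 ± 3.97 CPM in the control, 66.8 ± 0.764 at 20 mg/L and 44.2 ± 7.95 at 50 mg/L. It fell at 50 mg/L only (-0.76, SE 0.12, edgeR adjusted p = 0.000547), the value at 20 mg/L being -0.16 (adjusted p = 0.275), and it was lower at 50 than at 20 mg/L (-0.60, adjusted p = 0.00117). The enolase-domain gene A00562, whose enzyme family makes phosphoenolpyruvate, fell by 0.58 at 20 mg/L (SE 0.11, adjusted p = 0.00145). Its call at 50 mg/L (-0.35, adjusted p = 0.0261) was lost without Control 2, Control 3, Cd50 2 or Cd50 3 (0.0585 to 0.113) and with library size alone. The cofactor-independent phosphoglycerate mutase A05811 stayed between 4.54 and 6.91 CPM in all libraries and passed no test.

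Of the 7 genes at the pyruvate and acetyl-CoA step, 6 fell and 1 rose at 20 mg/L (all genes 27.2% lower and 23.8% higher). At the higher dose 5 were lower (all genes 21.8%), or 2 with library size alone (1582 of all 11140 genes). The one that rose was pyruvate formate lyase, A05227 (chromosome 2, 1891125 to 1895177). This was the most abundant of the 52 per coding length in every group, with 1985 ± 90.8, 2372 ± 43.6 and 1555 ± 78.6 reads per coding length and library total (FPKM; control, 20 and 50 mg/L, SD, n = 3). It stood at 4659, 4824 and 4580 CPM in the control libraries, 6000, 6137 and 6154 at 20 mg/L and 3343, 3183 and 2851 at 50 mg/L. The 3 groups did not overlap, with 20 mg/L highest and 50 mg/L lowest. The rise at 20 mg/L was 1.30-fold (log2 0.38, SE 0.08, edgeR adjusted p = 0.00327). The fall at 50 mg/L was 1.5-fold (log2 -0.58, SE 0.08, adjusted p = 0.000254), and the level at 50 mg/L was 1.95-fold below that at 20 mg/L (adjusted p = 1.83e-05).

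The activating enzyme, which places the glycyl radical on pyruvate formate lyase, did not rise with it. Its gene A03913 (chromosome 1, 8334491 to 8340193) was at 578, 566 and 541 CPM in the control, 451, 437 and 410 at 20 mg/L and 296, 250 and 239 at 50 mg/L. The level stepped down with each dose without overlap. It fell by 0.38 at 20 mg/L (SE 0.10, edgeR adjusted p = 0.00773) and by 1.10 at 50 mg/L (SE 0.10, adjusted p = 8.05e-06), and by 0.73 from 20 to 50 mg/L (adjusted p = 0.00011). Counts of the lyase gene A05227 per count of activating enzyme were 8.06 to 8.52 in the control, 13.3 to 15.0 at 20 mg/L and 11.3 to 12.7 at 50 mg/L.

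The 3 genes of the pyruvate dehydrogenase complex were lower at 20 mg/L. The E1 gene named pyruvate dehydrogenase (acetyl-transferring), A07617 (chromosome 4, 4778298 to 4781283), was at 1487, 1684 and 1617 CPM in the control, 1052, 987 and 935 at 20 mg/L and 1317, 1369 and 1361 at 50 mg/L. The fall at 20 mg/L was 1.61-fold (log2 -0.69, SE 0.09, edgeR adjusted p = 7.53e-05). Its log2 value at 50 mg/L was -0.24 (adjusted p = 0.0412), and that call was lost without Control 2, Control 3, Cd50 2 or Cd50 3 (0.112 to 0.12), with library size alone and in a fit of only the 6 libraries compared. The E2 gene A03744, for the acetyltransferase core, was at 1171, 1365 and 1242 CPM in the control, 740, 720 and 683 at 20 mg/L and 926, 938 and 901 at 50 mg/L. Its 3 groups did not overlap, and it fell by 0.82 at 20 mg/L (SE 0.09, adjusted p = 2.32e-05) and by 0.45 at 50 mg/L (SE 0.09, adjusted p = 0.00175), the second of these being lost with library size alone. The E1 beta gene A07918 fell from 118 ± 2.19 to 78.2 ± 4.20 CPM at 20 mg/L (adjusted p = 0.000439) and was at 114 ± 9.60 CPM at 50 mg/L (log2 difference -0.05, SE 0.09). From 20 to 50 mg/L all 3 rose, by 0.44, 0.37 and 0.54 on the log2 scale for A07617, A03744 and A07918.

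The counts of pyruvate formate lyase relative to pyruvate dehydrogenase E1 (A07617) changed with dose in both directions. The ratio was 2.83 to 3.13 in the control libraries, 5.70 to 6.59 at 20 mg/L and 2.09 to 2.54 at 50 mg/L, with no overlap between groups.

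**Figure D2:**
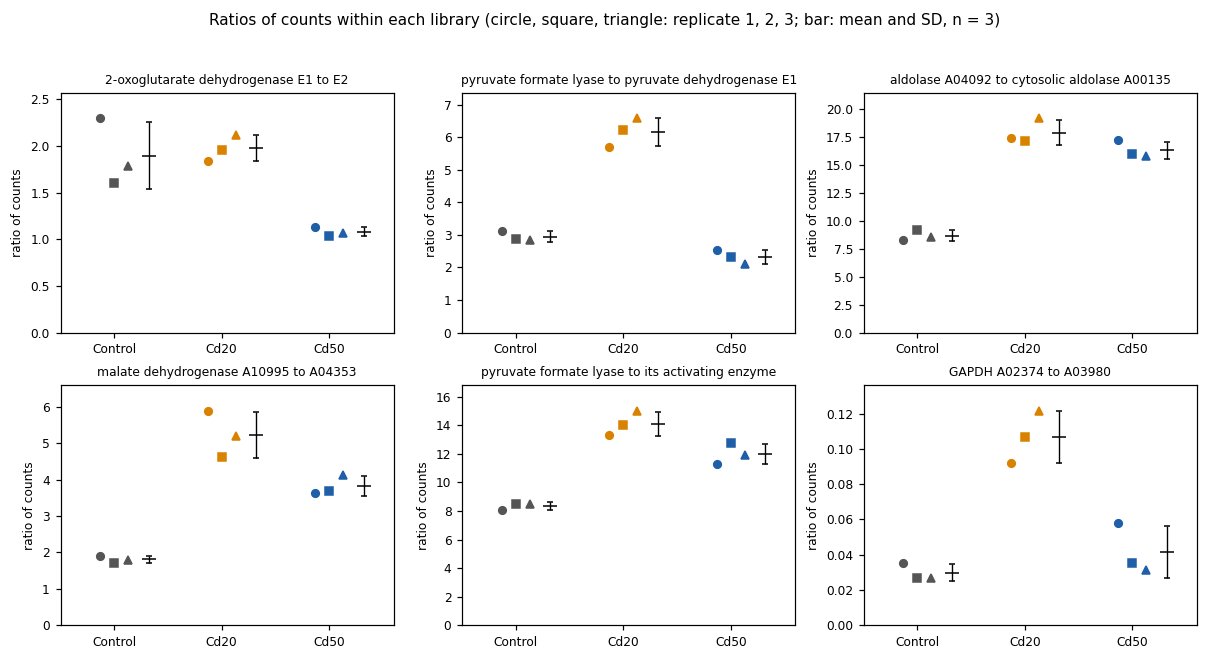
Ratios of the counts of 2 genes in the same library are plotted for 6 pairs, with symbols for the replicates and a bar for the mean and SD (n = 3). Pyruvate formate lyase A05227 per pyruvate dehydrogenase E1 lies highest at 20 mg/L (5.70 to 6.59), while 2-oxoglutarate dehydrogenase E1 per E2 lies lowest at 50 mg/L (1.04 to 1.14).

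The remaining genes at this step were pyruvate decarboxylase (A00981), which makes acetaldehyde, and a subunit of ATP citrate lyase (A01141), which releases acetyl-CoA from citrate. Pyruvate decarboxylase was at 243 ± 34.9 CPM in the control, 164 ± 8.54 at 20 mg/L and 188 ± 17.3 at 50 mg/L. It fell by 0.57 at 20 mg/L (SE 0.12, edgeR adjusted p = 0.00213). Its call at 50 mg/L (-0.37, adjusted p = 0.0243) was lost without Control 2, Control 3 or Cd50 3 (0.0584 to 0.0831) and with library size alone. ATP citrate lyase was at 91.5 ± 9.50, 67.9 ± 3.20 and 91.6 ± 9.71 CPM in the same order, lower at 20 mg/L than in the control (-0.43, SE 0.11, adjusted p = 0.00785) and than at 50 mg/L (adjusted p = 0.00481).

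The citrate cycle with its side reactions was the largest role, with 17 genes. At 20 mg/L 12 of them fell and 0 rose, against 27.2% and 23.8% of all genes, with a median log2 difference of -0.63. At 50 mg/L 5 were below the control and 0 above, against 21.8% and 17.8%, with a median of -0.09. With library size alone, 4 of the 17 were lower and 4 higher at 50 mg/L, with a median of 0.15. Of all 11140 genes, 1582 were then lower and 3851 higher. From 20 to 50 mg/L 9 rose and 3 fell, against 35.3% and 34.7%.

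The genes of the first enzymes of the cycle were not called in any comparison. Citrate synthase (A06268), which joins acetyl-CoA to oxaloacetate, was at 287 ± 30.5 CPM in the control, 312 ± 2.88 at 20 mg/L and 321 ± 19.0 at 50 mg/L. The log2 differences from control were 0.12 (SE 0.10, edgeR adjusted p = 0.303) and 0.16 (SE 0.10, adjusted p = 0.205). Aconitase (A03452), which converts citrate to isocitrate, gave -0.18 (SE 0.09, adjusted p = 0.117) and -0.10 (SE 0.09, adjusted p = 0.422).

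Of the 6 falls of at least 2-fold at 20 mg/L, 5 were in this role, namely A00711, A01004, A02893, A03020 and A04353. The gene for NAD-dependent isocitrate dehydrogenase, A00711 (chromosome 11, 1575426 to 1577527), was at 43.4, 58.2 and 54.3 CPM in the control libraries, 22.2, 23.4 and 18.2 at 20 mg/L and 50.2, 61.3 and 59.7 at 50 mg/L. All 20 mg/L libraries lay far below the others, while control and 50 mg/L overlapped. It was 2.44-fold lower at 20 mg/L than in the control (log2 -1.28, SE 0.15, edgeR adjusted p = 3.76e-05) and 2.68-fold higher at 50 than at 20 mg/L (log2 1.42, SE 0.15, adjusted p = 3.19e-05). Against control the 50 mg/L value was 0.14 (SE 0.14, adjusted p = 0.451). Subunit 1 of the same kind of enzyme, A01004, followed the same course, with 51.0 ± 13.2, 19.3 ± 1.68 and 48.3 ± 6.80 CPM. Its wide control spread came from Control 1, at 36.7 CPM against 62.6 and 53.7. It lies on the same chromosome, 3552755 to 3558293. The NADP-dependent enzyme A10911 fell 1.54-fold at 20 mg/L (adjusted p = 0.00124).

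Succinyl-CoA synthetase, which forms ATP or GTP directly, was represented by A02893 (chromosome 15, 2112324 to 2115351). Its levels were 67.0, 97.8 and 88.0 CPM in the control, 38.0, 35.5 and 31.6 at 20 mg/L and 68.8, 81.8 and 87.4 at 50 mg/L. The 20 mg/L libraries were again the low ones, 2.40-fold below the control (log2 -1.26, SE 0.15, edgeR adjusted p = 4.79e-05). Fumarate hydratase (A03020), which turns fumarate into malate, was at 61.3 ± 12.5, 28.9 ± 2.28 and 71.6 ± 10.5 CPM. It fell 2.12-fold at 20 mg/L (log2 -1.08, SE 0.16, adjusted p = 0.000246) and was 2.48-fold higher at 50 than at 20 mg/L (adjusted p = 6.91e-05).

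The 2-oxoglutarate dehydrogenase complex, which makes succinyl-CoA, had genes for E1 (A05803) and E2 (A03332), and they separated at 50 mg/L. E1 (chromosome 2, 5284772 to 5293944) was at 340, 367 and 336 CPM in the control, 213, 208 and 212 at 20 mg/L and 192, 207 and 210 at 50 mg/L. It was thus lower at both doses, by 0.72 (SE 0.09, edgeR adjusted p = 4.96e-05) and 0.78 (SE 0.09, adjusted p = 3.38e-05) on the log2 scale. The doses overlapped and differed by -0.05 (adjusted p = 0.576), which became a called rise of 0.31 with library size alone. E2 was at 188 ± 40.3 CPM in the control, 107 ± 8.02 at 20 mg/L and 188 ± 16.8 at 50 mg/L, and fell at 20 mg/L (-0.81, SE 0.14, adjusted p = 0.000826) with no difference from control at 50 mg/L passing the test (0.00, SE 0.14, adjusted p = 0.994). In counts, E1 was 1.61 to 2.30 times E2 in the control libraries, 1.84 to 2.12 times at 20 mg/L and 1.04 to 1.14 times at 50 mg/L.

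Malate dehydrogenase, which regenerates oxaloacetate, had 2 genes of this name and a lactate/malate dehydrogenase. Which compartment each serves is not given, and near-identical copies could share reads. A04353 (chromosome 1, 2724669 to 2728078) was at 176, 150 and 154 CPM in the control, 60.2, 69.2 and 60.8 at 20 mg/L and 62.0, 51.7 and 49.4 at 50 mg/L. Every cadmium library lay below every control library, and the fall was 2.52-fold at 20 mg/L (log2 -1.33, SE 0.12, edgeR adjusted p = 5.17e-06) and 2.94-fold at 50 mg/L (log2 -1.56, SE 0.12, adjusted p = 2.26e-06). This was the largest fall of the 52 genes at 50 mg/L. The other gene, A10995, was at 290 ± 40.9, 330 ± 21.6 and 207 ± 17.3 CPM. Its value at 20 mg/L was 0.19 (SE 0.11, adjusted p = 0.187), while at 50 mg/L it fell by 0.49 (SE 0.11, adjusted p = 0.00586). A10995 had 1.72 to 1.90 counts per count of A04353 in the control, 4.62 to 5.89 at 20 mg/L and 3.63 to 4.13 at 50 mg/L. The lactate/malate dehydrogenase A09591 was at 123 ± 4.03, 103 ± 8.19 and 123 ± 2.54 CPM, and its lower call at 20 mg/L (-0.25, adjusted p = 0.0398) was lost without any 1 of Control 1, Control 2, Control 3, Cd20 2 and Cd20 3 (0.0567 to 0.161).

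**Figure D3:**
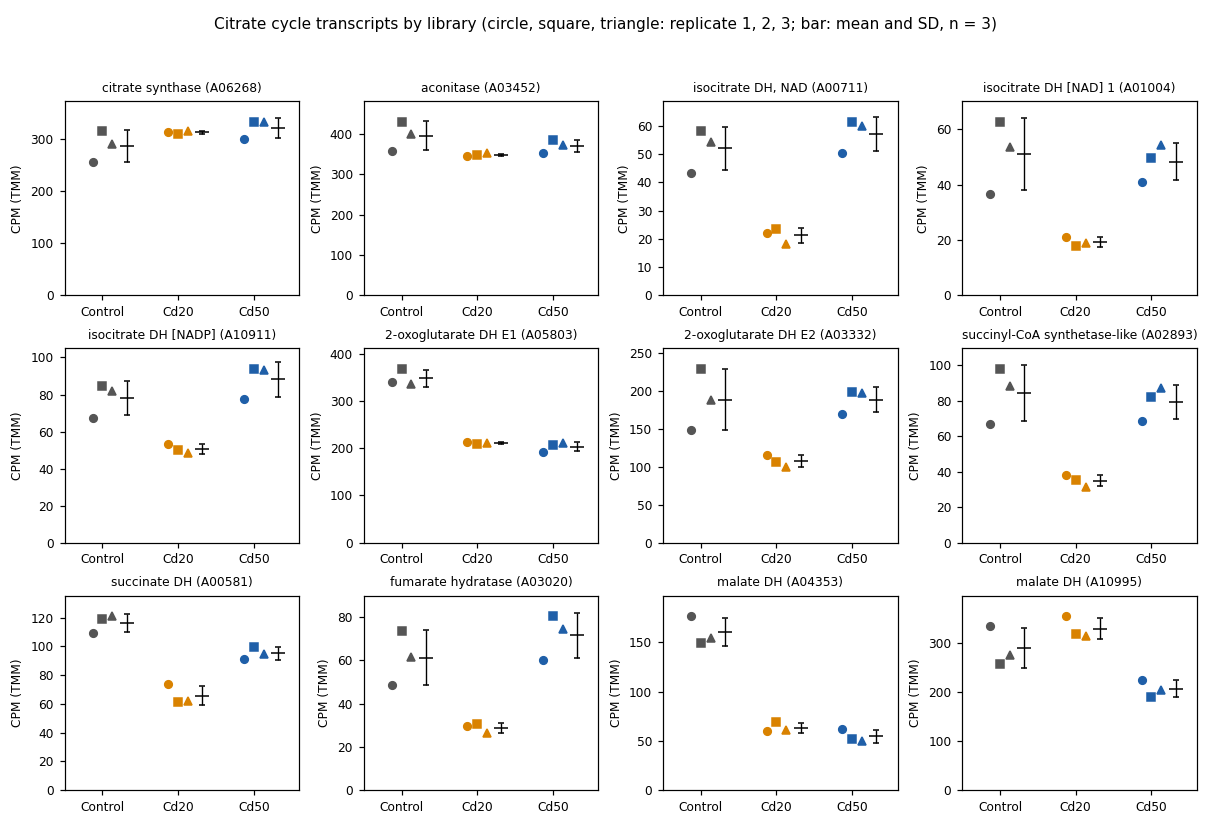
Levels of 12 citrate cycle and succinate dehydrogenase genes are plotted by library in TMM-scaled CPM, with symbols for the replicates and a bar for the mean and SD (n = 3). In the panels for A00711, A01004, A10911, A03332, A02893, A00581 and A03020 the 20 mg/L libraries lie below all others, while A05803 and A04353 are low at both doses.

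Side reactions of the cycle separated by enzyme. Malate synthase (A02177), of the glyoxylate cycle, was at 207 ± 10.2, 214 ± 6.94 and 152 ± 8.47 CPM. It was lower at 50 mg/L than in the control (-0.44, SE 0.09, edgeR adjusted p = 0.00228) and than at 20 mg/L (-0.49, SE 0.09, adjusted p = 0.000528), but neither call was made with library size alone. Phosphoenolpyruvate carboxykinase, which makes phosphoenolpyruvate from oxaloacetate, had 2 genes. A03625 (chromosome 17, 1568397 to 1575926) was at 195 ± 22.0, 214 ± 11.1 and 115 ± 5.51 CPM, with every 50 mg/L library below every other. It fell at 50 mg/L (-0.76, SE 0.10, adjusted p = 0.000148), and its value at 20 mg/L was 0.14 (SE 0.10, adjusted p = 0.273). The second gene, A02532, was at 91.2 ± 4.22, 75.5 ± 9.17 and 90.8 ± 1.99 CPM, and its lower call at 20 mg/L (-0.27, adjusted p = 0.0472) was lost without Control 2, Control 3, Cd20 2 or Cd20 3 (0.0517 to 0.226). Phosphoenolpyruvate carboxylase (A10509), which refills oxaloacetate, fell from 122 ± 24.0 to 70.9 ± 3.18 CPM at 20 mg/L (-0.78, SE 0.14, adjusted p = 0.000728) and was at 101 ± 8.60 CPM at 50 mg/L. Pyruvate carboxylase (A05506), with the same task, was called lower at 20 mg/L (-0.35, adjusted p = 0.0488) although its libraries overlapped the control, and the call was lost without any 1 of Control 2, Control 3 and the 3 Cd20 libraries (0.0906 to 0.207).

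In the respiratory chain, the 4 complex I genes belong to the entry point for NADH. Of the 4, 0 were called lower and 1 higher at 20 mg/L, where 27.2% of all genes were lower and 23.8% higher. The iron-sulfur protein 2 gene (A01771) was at 104, 114 and 120 CPM in the control, 118, 108 and 104 at 20 mg/L and 121, 121 and 123 at 50 mg/L, with no difference past the threshold. The 78K chain gene (A05650) was at 166, 166 and 171 CPM, then 158, 158 and 150, then 135.7, 145.8 and 134.9 in the same order. Its 20 mg/L libraries all lay below the control libraries, without a call. Its lower call at 50 mg/L (-0.27, edgeR adjusted p = 0.0229) was lost without Control 1, Control 3, Cd50 2 or Cd50 3 (0.0533 to 0.0997) and with library size alone. Flavoprotein 1 (A10578), which takes the electrons from NADH, was at 270, 250 and 259 CPM, then 314, 306 and 293, then 250, 247 and 245. Its 20 mg/L libraries were the high ones (0.23, adjusted p = 0.0355), but that call was lost without Control 2, Control 3, Cd20 1 or Cd20 2 (0.0962 to 0.162) and with library size alone. The assembly factor 6 gene (A08199) was scarce, at 4.13, 7.62 and 5.91 CPM, then 5.78, 5.14 and 5.31, then 8.18, 10.9 and 10.6. It was 1.69-fold higher at 50 mg/L than in the control (adjusted p = 0.0157), a call lost without Cd50 2 or Cd50 3 (0.0528 and 0.0572), and 1.83-fold higher than at 20 mg/L (adjusted p = 0.00414).

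Succinate dehydrogenase is both complex II and a citrate cycle enzyme, and its 2 genes were lower at 20 mg/L. A00581 (chromosome 11, 783304 to 786496) was at 109, 119 and 121 CPM in the control, 73.6, 61.4 and 62.3 at 20 mg/L and 91.0, 99.8 and 94.7 at 50 mg/L. The groups did not overlap, and the fall at 20 mg/L was 1.77-fold (log2 -0.82, SE 0.10, edgeR adjusted p = 7.08e-05). The lower call at 50 mg/L (-0.29, adjusted p = 0.0391) was lost without any 1 of Control 2, Control 3 and the 3 Cd50 libraries (0.0549 to 0.126). A00399 was at 160, 171 and 173 CPM in the control, 137, 131 and 125 at 20 mg/L and 136, 158 and 170 at 50 mg/L. It fell by 0.36 at 20 mg/L (SE 0.10, adjusted p = 0.0122), which was not called without Control 3 or Cd20 3 (0.0522 and 0.0594).

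Around complex III, cytochrome c1 and the soluble carrier cytochrome c moved in opposite directions at 20 mg/L. Cytochrome c1 (A04402, chromosome 1, 2972897 to 2974887) was at 97.7, 123 and 114 CPM in the control, 73.9, 57.4 and 59.9 at 20 mg/L and 97.7, 111 and 119 at 50 mg/L. It fell 1.75-fold at 20 mg/L (log2 -0.80, SE 0.13, edgeR adjusted p = 0.000426) and rose from 20 to 50 mg/L (0.78, SE 0.13, adjusted p = 0.000311). Cytochrome c (A05750) was at 235, 204 and 210 CPM, then 281, 254 and 286, then 236, 185 and 188. Its rise of 0.34 at 20 mg/L (adjusted p = 0.0265) was lost without Control 2, Control 3, Cd20 1 or Cd20 3 (0.0723 to 0.108) and with library size alone. Holocytochrome c synthase (A05657, chromosome 2, 4448053 to 4450052) attaches heme to the cytochrome. It was at 18.9, 13.3 and 15.2 CPM in the control, 32.0, 30.9 and 36.8 at 20 mg/L and 25.7, 16.2 and 15.8 at 50 mg/L. The 20 mg/L libraries were above all others, 2.10-fold over the control (log2 1.07, SE 0.20, adjusted p = 0.00101), and 50 mg/L was lower than 20 mg/L (-0.80, SE 0.19, adjusted p = 0.00329). Counts of cytochrome c per count of c1 were 1.67 to 2.40 in the control, 3.80 to 4.78 at 20 mg/L and 1.58 to 2.42 at 50 mg/L.

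Complex IV, cytochrome c oxidase, had genes named as subunits 1 and 2 and a copper-insertion assembly factor of the CtaG/Cox11 family. Subunit 2 (A05402) was at 290, 288 and 287 CPM, then 280, 247 and 244, then 315, 286 and 311, with no difference from control past the threshold. Subunit 1 (A00656) was scarce, with 35 to 100 counts in a library. It was at 3.85, 8.29 and 6.50 CPM, then 3.86, 4.18 and 3.64, then 6.02, 6.66 and 5.89. It was called lower at 20 mg/L (-0.66, edgeR adjusted p = 0.0483) although the groups overlapped, and the call was lost without any 1 of Control 2, Control 3 and the 3 Cd20 libraries (0.0857 to 0.223). The assembly factor (A07979) was at 7.64, 8.12 and 6.17 CPM in the control, 10.2, 11.4 and 13.4 at 20 mg/L and 10.5, 9.37 and 9.42 at 50 mg/L. It rose 1.60-fold at 20 mg/L (log2 0.67, SE 0.17, adjusted p = 0.0057), and its value at 50 mg/L was 0.42 (SE 0.17, adjusted p = 0.0643).

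Both mitochondrial ATP synthase genes were lower at 20 mg/L. The catalytic beta subunit (A00554, chromosome 10, 732406 to 740607) was at 374, 547 and 481 CPM in the control, 264, 244 and 255 at 20 mg/L and 362, 418 and 426 at 50 mg/L. Control 1 was nearest to the 20 mg/L libraries, but no library of the 2 groups overlapped, and the fall was 1.84-fold (log2 -0.88, SE 0.13, edgeR adjusted p = 0.00024). The epsilon chain (A10809) was at 119, 118 and 114 CPM, then 93.6, 85.0 and 88.5, then 111, 115 and 121, a fall of 0.40 at 20 mg/L (SE 0.09, adjusted p = 0.00318). Differences from control at 50 mg/L were -0.22 (SE 0.13, adjusted p = 0.198) for beta and -0.02 (SE 0.09, adjusted p = 0.877) for epsilon, and both genes were higher than at 20 mg/L, by 0.66 (adjusted p = 0.000825) and 0.38 (adjusted p = 0.00246).

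**Figure D4:**
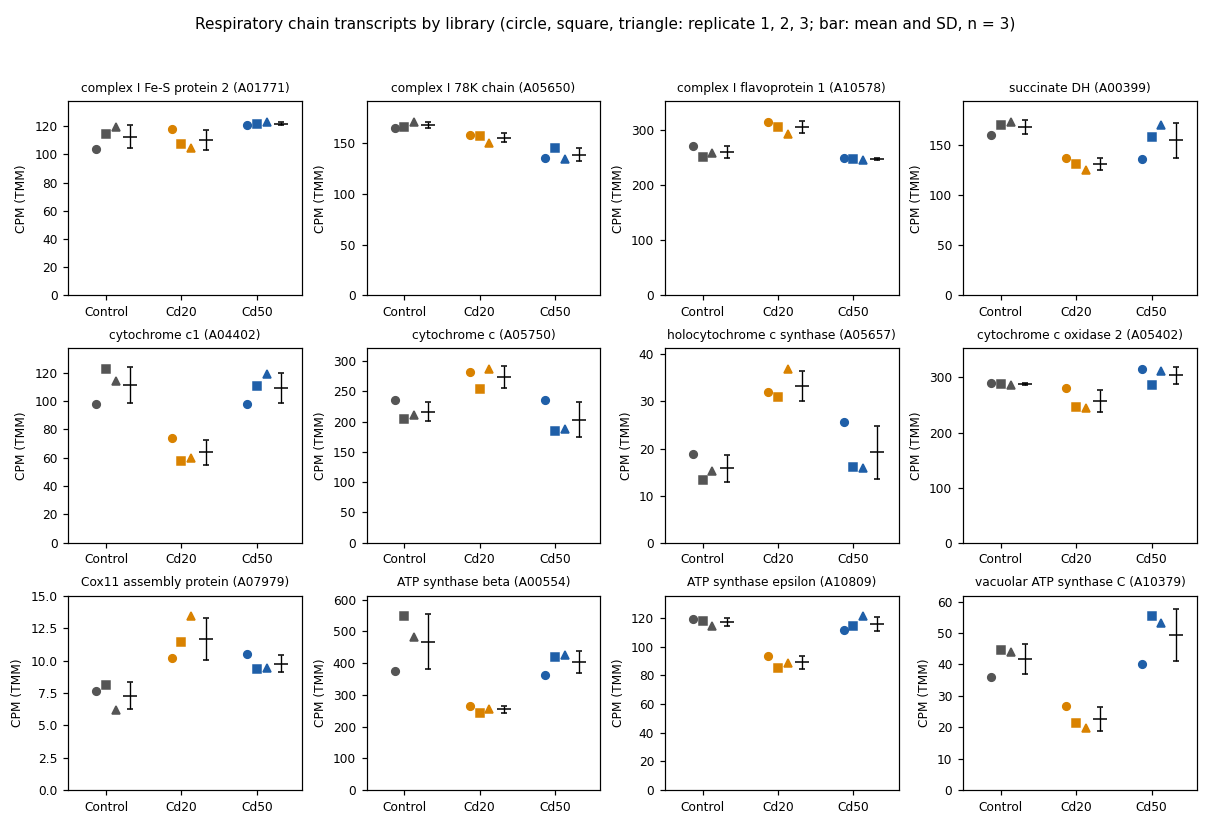
Levels of 11 respiratory chain and ATP synthase genes and of the vacuolar ATP synthase gene are plotted by library in TMM-scaled CPM, with symbols for the replicates and a bar for the mean and SD (n = 3). Cytochrome c1 (57.4 to 73.9 CPM) and ATP synthase beta (244 to 264 CPM) are low at 20 mg/L, while holocytochrome c synthase (30.9 to 36.8 CPM) is high there.

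The 6 genes assigned to other pathways counted 2 higher and 3 lower at 20 mg/L, where 23.8% and 27.2% of all genes were higher and lower. Subunit C of the vacuolar proton pump (A10379) was at 36.1, 44.7 and 43.9 CPM in the control, 26.9, 21.4 and 19.8 at 20 mg/L and 40.0, 55.3 and 53.2 at 50 mg/L. It fell 1.83-fold at 20 mg/L (edgeR adjusted p = 0.00103) and was 2.18-fold higher at 50 than at 20 mg/L (adjusted p = 0.000139). The 2 enzymes that make AMP from IMP went different ways. Adenylosuccinate synthetase (A03579), the first, was at 43.6, 44.7 and 39.5 CPM, then 51.9, 59.6 and 63.5, then 36.4, 36.7 and 35.2. It rose at 20 mg/L (0.45, SE 0.11, adjusted p = 0.00486). Adenylosuccinate lyase (A03019), which follows it, was at 42.5, 54.0 and 55.0 CPM, then 43.7, 35.8 and 35.6, then 58.2, 67.0 and 74.0. It was higher at 50 than at 20 mg/L (0.79, SE 0.14, adjusted p = 0.000419). Its calls against control were not stable, being lost at 20 mg/L without Control 2, Control 3, Cd20 2 or Cd20 3 (0.0977 to 0.123) and at 50 mg/L without Control 1, Control 3, Cd50 2 or Cd50 3 (0.0521 to 0.123). The gene named RNA cyclase/enolpyruvate transferase (A04784), scarce at 3.99, 2.82 and 4.08 CPM in the control, was at 9.06, 9.41 and 11.2 at 20 mg/L and 5.21, 3.88 and 2.75 at 50 mg/L. That 2.71-fold rise at 20 mg/L (log2 1.44, SE 0.24, adjusted p = 0.000501) was the largest among the 52 genes in either comparison with the control. Succinate-semialdehyde dehydrogenase (A04231) fell by 0.64 at 20 mg/L (adjusted p = 0.000694), and the triose phosphate translocator (A01722) did not differ from the control past the threshold at either dose.

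Per coding length, pyruvate formate lyase was followed in each group by pyruvate dehydrogenase E1 (A07617), with 1406 ± 129 FPKM in the control, 801 ± 48.4 at 20 mg/L and 1400 ± 116 at 50 mg/L (SD, n = 3). At 50 mg/L these means of A05227 and A07617 lay within the sum of their SDs. Next came the E2 gene A03744 in the control (830 ± 86.3), cytochrome c (A05750) at 20 mg/L (722 ± 40.2) and aldolase A04092 at 50 mg/L (1112 ± 19.5). The lowest mean was that of A04784 in the control (3.13 ± 0.574 FPKM) and at 50 mg/L (3.97 ± 1.01), and that of phosphoglycerate mutase A05811 at 20 mg/L (4.50 ± 0.497). The 52 genes lie on 16 chromosomes, with the most, 8 each, on chromosomes 1 and 2, and 0 of them overlap another gene in the deposited positions, whose genome assembly went unnamed in the labels and files. Their median coding length was 1216.5 bases, against 1269 for all genes.

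Genes around the pathway that the word rule did not take were collected in a second list of 51 by words such as triosephosphate isomerase, dihydrolipoamide, formate, alcohol dehydrogenase and mitochondrial carrier, of which 50 were tested. Of the 50, 20 were lower (40%, all genes 27.2%) and 8 higher (16%, all genes 23.8%) at 20 mg/L. Against control at 50 mg/L 7 were lower and 7 higher (14% each, all genes 21.8% and 17.8%). From 20 to 50 mg/L 27 rose (54%, all genes 35.3%) and 11 fell (22%, all genes 34.7%). At 20 mg/L its median was -0.31, between that of the 52 genes and that of all genes. At 50 mg/L the higher count was 20 with library size alone, 13 without both Control 1 and Cd50 1, and 12 without Cd50 1. All genes counted 3851, 2546 and 2516 higher in the same order, against 1983 in the main fit. Triosephosphate isomerase, which interconverts the products of aldolase, had 2 genes, and both fell at 20 mg/L, A09252 by 0.82 and A10105 by 1.68. Both rose again from 20 to 50 mg/L, by 0.88 and 1.69, and their differences from control at 50 mg/L were 0.06 and 0.01. A further dihydrolipoamide acetyltransferase (A06298) and the ADP/ATP translocator (A03782), which exchanges nucleotides across the inner mitochondrial membrane, fell by 0.89 and 0.84 at 20 mg/L and rose by 1.04 and 1.00 between the doses. The 8 genes higher at 20 mg/L, against 20 lower, included lipoyl synthase (A10177, by 1.19) and a mitochondrial ribosomal protein gene (A00688, by 1.32). Ornithine aminotransferase (A06351, by 0.60) and an alcohol dehydrogenase (A06790, by 0.45) were also among them. A00596 carries the name formate C-acetyltransferase, the systematic name of pyruvate formate lyase, and moved as A05227 did, by 0.41 at 20 mg/L and -0.62 at 50 mg/L on the log2 scale. How the authors counted reads shared by near-identical genes was not stated in the labels. The acetyl-CoA synthetase-like gene A07563 fell at both doses, by 0.86 and 1.81.

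The authors' deposited table of each comparison lists genes under an adjusted p of 0.05. Of the 52, the authors' deposited table for 20 mg/L against control lists 36 (8 higher, 28 lower), that for 50 mg/L against control 18 (2 higher, 16 lower) and that for 50 against 20 mg/L 36 (23 higher, 13 lower). All of these were also called in the same direction by edgeR. Genes called by edgeR and missing from the authors' deposited table were A00656, A02532, A05506 and A09591 at 20 mg/L, A03019, A04231 and A07617 at 50 mg/L, and A02532, A04231, A05402 and A09591 between the doses.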

How the data were processed

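The analysis began from the authors' deposited tables. Per the labels' protocols, libraries were strand-specific (dUTP) and poly(A)-selected. DESeq2 1.34.0, StringTie 2.2.1 and STAR 2.7.10a appear in the submitters' processing notes. Which program counted reads, whether it used strand, and which assembly and annotation it used were not given in the sources used here. Counts were deposited as whole numbers for 12605 genes. The FPKM values deposited by the authors equalled those calculated from the counts, the coding lengths and the library sums to within 1% in 100.0% of cases. The authors' deposited comparison tables give log2 fold changes and p-values for genes under an adjusted p of 0.05. FPKM was used to compare levels between genes and CPM to compare libraries. Since FPKM divides by library totals, the limma alternative has the same scaling as library size alone.

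The 52 genes were found by the word rule in the deposited product names and given roles from the names alone. They and the related list were chosen with earlier results of these data known. Within each role, the 4 genes of lowest adjusted p in any comparison get a value for every library; the genes of the related list, and other values given, were chosen after they were seen. Coordinates and coding lengths are those of the deposited table.

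A single fit of the 9 libraries with group as factor was made in edgeR 4.0.16 (R 4.3.3), with TMM scaling, filterByExpr and the quasi-likelihood F-test. The call threshold was 0.05 for p-values adjusted by Benjamini-Hochberg over all 11140 genes tested, after 1465 were removed by the filter. The biological coefficient of variation was 0.139. The script was tested on simulated data with known changes in 200 genes, far fewer than were called here. It recovered 41.8% of 1.5-fold changes at 20 mg/L against control, 31.3% at 50 mg/L and 22.4% between the doses. For 2-fold changes these were 73.1%, 79.1% and 65.7%, and false calls were 2.72%, 4.14% and 5.34% of calls. A gene that was not called may thus still differ. Alternatives were relative log expression (RLE) size factors, library size alone, no filter, only the 6 libraries compared, each library left out, DESeq2 1.42.0, limma 3.58.1 on log2(FPKM + 0.1) and a replicate block. Leaving out both Control 1 and Cd50 1, and a block in only 6 libraries, were added after the data were seen.

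To check whether replicate numbers pair libraries, deviations from group means were correlated between libraries of the same number. Control and 50 mg/L libraries gave 0.594, 0.449 and 0.186 for numbers 1, 2 and 3, each above the 0.1 set as the limit for pairing. Their libraries of different number gave -0.546 to 0.395, the highest for Cd50 3 with Control 2. Control 1 and Cd50 1 both stood apart in their groups, so the check cannot tell pairing by number from that displacement. Control and 20 mg/L libraries gave -0.167, 0.056 and -0.0454, and the 2 doses gave -0.214, 0.132 and -0.218, so neither was taken as paired. The block was left out of the main test since no label explains the replicate number.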

Additional observations from a re-analysis of the deposited data

How the results depend on the processing

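Calls at 50 mg/L against control depended most on the processing. With library size alone 12 of the 52 genes were higher and 8 lower, and with limma on FPKM, which has the same scaling, 10 and 8, against 3 and 18 with TMM. All genes counted 3851 higher and 1582 lower with library size alone, 3676 and 1569 with limma on FPKM, and 1983 and 2431 with TMM. With a replicate block in only the 6 libraries compared, 6 of the 52 were higher. Leaving out each library in turn gave 1 to 4 higher and 11 to 18 lower. In the related list, 7 higher became 20 with library size alone, 17 with limma on FPKM, 13 with the block in 6 libraries, 13 without both Control 1 and Cd50 1, and 5 to 12 with each library left out, and 7 lower became 12 with the block. The replicate block in all 9 libraries gave 3 higher and 18 lower at 50 mg/L against control, 8 and 32 at 20 mg/L against control, and 27 and 13 between the doses. The counts of the 52 genes at 20 mg/L against control and between the doses stayed within 1.5 times the values given under every alternative run. Differences between the doses that were called in 1 setting and changed sign with library size alone and with limma on FPKM were those of A05803 (0.31 and 0.30), A10578 (0.059 and 0.058), A04607 (0.31 and 0.31) and A05001 (0.35 and 0.35), and 0 of the 52 were called in opposite directions; the cause was not tested. A further 3 of the 52 between the doses, and 13 at 50 mg/L against control, changed sign under each of these settings with no call in either. Taking each called result of the 52 under each alternative, 1354 of 1515 were still called in the same direction.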

Other observations

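Among the 32 genes lower at 20 mg/L, Control 1 was the lowest control library for 26, Control 3 for 4 and Control 2 for 2. Among the same 32 genes, Cd50 1 was the lowest 50 mg/L library for 23, Cd50 3 for 6 and Cd50 2 for 3. The same counts were not made for all genes lower at 20 mg/L. Over all genes tested, Control 1 was the control library nearest to the 20 mg/L mean for 61.8%. Cd50 1 was the nearest 50 mg/L library for 72.7%. These shares are of another measure and of all genes. Whether the counts for the 32 genes are particular to them was not tested. With both Control 1 and Cd50 1 left out, all 32 genes were again called lower at 20 mg/L against control. This setting was added after the data were seen. Leaving out the lowest control library of most of these genes could hardly end such calls. Lower calls among all genes rose from 3026 to 3750.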
